A study of Homo sapiens with 12 samples.

Results

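The replication fork and S-phase repair genes described here are 44 genes of 14862 in the normalized count table of an siRNA study of the mitotic factors CENPF and FOXM1. The rule that picked them goes by function and uses no measured value: clamp and clamp loader, DNA polymerases, GINS and CDC45, RPA, fork protection, recombination, chromatin assembly and mismatch repair. All 44 symbols were found in the study's comparison tables and all 44 passed the filter on low values. The study depleted CENPF, a kinetochore protein, and FOXM1, a transcription factor active in G2, in hTERT-RPE1, a human line of retinal pigment epithelium made immortal by telomerase, and sequenced polyA RNA. The 4 groups of 3 libraries each were cells given siCENPF, cells given siFOXM1, cells given siCENPF and siFOXM1 together (siCENPF+siFOXM1), and cells given siNeg, the negative-control siRNA. All were parental cells exposed to 20 nM siRNA overnight and collected at 48 hours, and the genotype label reads CENP-F KD, FOXM1 KD, Double KD and WT for these groups; the siRNA sequences, and the dose of each siRNA in the double treatment, are not stated. The labels do not say whether the libraries of a group came from separate cultures, so p-values measure only the spread between these samples.

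At a replication fork the CMG helicase, made of the MCM ring, CDC45 and the GINS complex, unwinds the parental strands while RPA coats the exposed single strands. Polymerase alpha-primase starts each Okazaki fragment, the RFC clamp loader places the PCNA ring, polymerases delta and epsilon extend the strands, and FEN1 and LIG1 finish the joins. The fork protection complex and CHEK1 hold stalled forks, BRCA, BLM and Fanconi anaemia proteins repair broken ones, and CAF-1 with UHRF1 and DNMT1 restores nucleosomes and DNA methylation behind the fork. Many of these genes are textbook E2F targets, transcribed from late G1 into S phase, whereas FOXM1 is known for genes transcribed later, in G2.

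RefSeq promoter windows, 250 bases before to 50 after the annotated start on GRCh38.p14, were matched for 38 of the 44 genes. The E2F words TTTCCCGC, TTTCGCGC, TTTGCCGC and TTTGGCGC, searched on both strands, occurred in 17 of these 38 windows (44.7%), against 908 of all 27305 (3.33%) and 519 of the 9486 windows of genes in the normalized count table (5.47%). The words TTTGAA and TTCGAA, letters of the cell cycle homology region (CHR) of G2 and M phase promoters, occurred in 0 of the 38, against 16.6% of all windows and 11.2% of those of genes in the table. In a list of G2 and M phase genes these CHR words occurred in 15 of 20 windows and the E2F words in 2. The E2F words occurred in 6 of 9 windows of origin licensing genes (66.7%), in 2 of 9 of nucleotide supply genes (22.2%) and in 7 of 53 of a list of further fork and S-phase repair genes (13.2%). CCAAT stood in 21 of the 38 (55.3%) in 35.7% of all windows and in 36.8% of those of genes in the table. A match is a run of letters and not a measured binding site. The genes below are those of the 17 called in at least 1 comparison further on by limma with the replicate number as a term. PCNA, also among the 17, passed the threshold only in edgeR and is not shown. DNMT1, FANCA, GINS3, LIG1, POLA2, POLE, POLE2 and RFC3, the rest of the 17, were not called by limma. The windows of BLM, CHAF1A, CHEK1, PRIM1, RAD51AP1, RPA1 and TIPIN, which were called, held no E2F word. FANCD2 is shown for a higher call, with siFOXM1 against siCENPF. Whether the word goes with a call was not tested. Each line gives 30 bases on the strand of the gene, 5′ to 3′, with the E2F word in capitals. A word on the opposite strand reads as its reverse complement, such as GCGGGAAA for TTTCCCGC.
CLSPN, minus strand, chr1:35769965-35769994: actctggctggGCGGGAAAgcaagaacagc
GINS1, plus strand, chr20:25407667-25407696: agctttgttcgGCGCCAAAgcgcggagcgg
GINS2, minus strand, chr16:85688967-85688996: ctctcgccgtgGCGGGAAAacggcggccgc
UHRF1, plus strand, chr19:4909476-4909505: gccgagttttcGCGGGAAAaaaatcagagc
POLA1, plus strand, chrX:24693770-24693799: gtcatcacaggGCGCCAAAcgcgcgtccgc
EXO1, plus strand, chr1:241848197-241848226: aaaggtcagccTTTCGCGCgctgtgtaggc
MSH6, plus strand, chr2:47783137-47783166: ctccccccagaTTTCCCGCcagcaggagcc
FANCD2, plus strand, chr3:10026424-10026453: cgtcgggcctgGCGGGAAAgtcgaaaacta
In CLSPN, GINS1, UHRF1, EXO1, MSH6 and FANCD2 the word begins within 14 bases of the annotated start. In GINS2 it begins 31 bases before the start and in POLA1 137 bases before it.

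In the libraries that received its siRNA, each target lay far below siNeg. CENPF counts (normalized) were 893, 827 and 1017 with siCENPF and 1360.3, 1360.4 and 1284 with siCENPF+siFOXM1, against 7797, 9537 and 7993 with siNeg. FOXM1 counts were 732, 491 and 816 with siFOXM1 and 729, 816 and 822 with siCENPF+siFOXM1, against 4186, 4438 and 4763 with siNeg. Libraries held 13671250 to 35411230 reads in genes, with siNeg library 3 and siCENPF library 3 (31302177) the deepest, and between 1.73% and 2.54% of them were mitochondrial. Of 8 markers of differentiated retinal pigment epithelium, 4 were in the normalized count table, and RPE65 and TYR were listed at 0 in all 12 libraries. The 8 markers summed to between 28.7 and 64.2 FPKM in each library, and the highest value of a single marker was 62.4 FPKM. Markers of other cell types summed to at most 2.71 FPKM in any library for each list (4 keratinocyte or carcinoma, 5 blood and endothelial, 4 neural genes), and KRT5 and HBB were listed at 0 throughout. Replicate numbers paired the samples: libraries of the same number in different groups deviated together, so each test is given without and with the replicate number as a term (the replicate block).

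In siNeg cells the 44 genes spanned levels from PCNA, the sliding clamp, to POLE2, a subunit of polymerase epsilon. Levels between genes are given per length, as RPKM over merged exons (reads per kilobase, scaled by depth). PCNA stood at 148 ± 16.9 (SD, n = 3 libraries), FEN1 at 55.2 ± 8.26 and POLD2, the second polymerase delta subunit, at 38.3 ± 2.67. RPA1 (33.6 ± 2.23) and RPA2 (32.8 ± 2.72), the larger subunits of RPA, did not differ beyond their spread, whereas RPA3, the smallest, stood at 5.94 ± 0.660. Within GINS, whose 4 subunits form 1 complex, the transcripts were at 13.04 ± 3.20 for GINS2, 8.80 ± 1.30 for GINS1, 8.01 ± 1.38 for GINS4 and 4.26 ± 0.509 for GINS3. The lowest levels were those of BLM (4.13 ± 0.221), BRCA2 (2.82 ± 0.369) and POLE2 (2.16 ± 0.484). The deposited FPKM give another order, because the length behind them counts each exon once per transcript and exceeds the merged exon length 1.17 to 6.71 times.

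**Figure D1:**
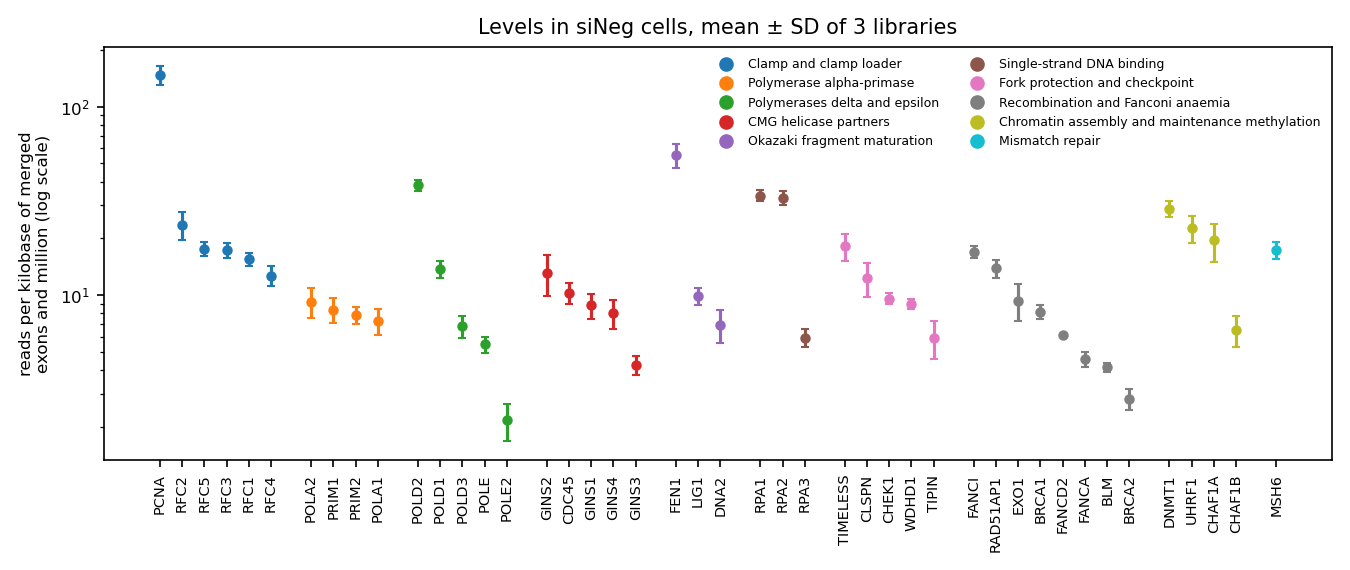
Level of each of the 44 genes in siNeg cells, as RPKM over merged exons on a log axis, as mean ± SD of 3 libraries, coloured by role. PCNA (148) and POLE2 (2.16) are the highest and the lowest.

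Most of the 44 genes stood slightly below siNeg in every knockdown group. With siCENPF 40 of 44 had a log2 fold change below 0 (median -0.16), with siFOXM1 36 (median -0.10) and with siCENPF+siFOXM1 41 (median -0.19). Over all 14857 genes tested, 50.2%, 50.2% and 50.7% were below 0 in these comparisons, and the median lay at about 0 in each. The 3 comparisons share the same siNeg libraries. In bulk RNA, fewer cells in S phase and less RNA per cell cannot be told apart.

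Without the block limma called 0 of the 44 genes in each comparison, against 0.337%, 0.66% and 0.458% of all genes. An unadjusted limma p under 0.05 held for 7, 3 and 11 of the 44, and for 821, 1155 and 1093 of all 14857 genes. With siFOXM1 the 3 of 44 do not exceed the share over all genes. Without the block edgeR also called 0 in each (0.337%, 0.68% and 0.467% of all genes), and DESeq2 called 1, 1 and 0 (1.08%, 1.98% and 1.29%). With the block limma called 8 lower and 0 higher with siCENPF, where 1.66% of all genes were called lower. It called 10 lower and 0 higher with siFOXM1 (4.23% of all genes lower), and 16 lower and 0 higher with siCENPF+siFOXM1 (3.72%). edgeR with the block called 10, 11 and 17 lower (1.86%, 4.32% and 4% of all genes). In what follows, calls are those of limma unless another tool is named. The called genes are named below by role, genes outside the naming rule among them (such as UHRF1 with siCENPF) were chosen after their values were seen, and the values per pair of same-numbered libraries are in the heat map. These counts depended on single libraries. For siCENPF the count was 5 without siNeg library 3. For siFOXM1 it was 5, 3 and 2 without siFOXM1 libraries 1, 2 and 3, and 2 without siNeg library 3. For siCENPF+siFOXM1 it was 9 and 6 without its libraries 2 and 3, 10 without siNeg library 1 and 9 without siNeg library 3. Other such fits called more genes: the counts ranged from 5 to 9, 2 to 13 and 6 to 20. The share of all genes called in such fits, here and further on, was not taken. A loss particular to the 44 genes thus cannot be told from a general one.

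The 3 knockdown libraries and the 3 siNeg libraries did not overlap for 7 genes that were lower with siCENPF (4.44% of all genes), for 5 lower and 1 higher with siFOXM1 (6.83% and 6.56%) and for 8 lower with siCENPF+siFOXM1 (6.58%). Within same-numbered pairs, 30 of the 44 genes were below siNeg in all 3 pairs with siCENPF, 23 with siFOXM1 and 35 with siCENPF+siFOXM1. Among all genes the shares were 17.6%, 22% and 21.3%.

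**Figure D2:**
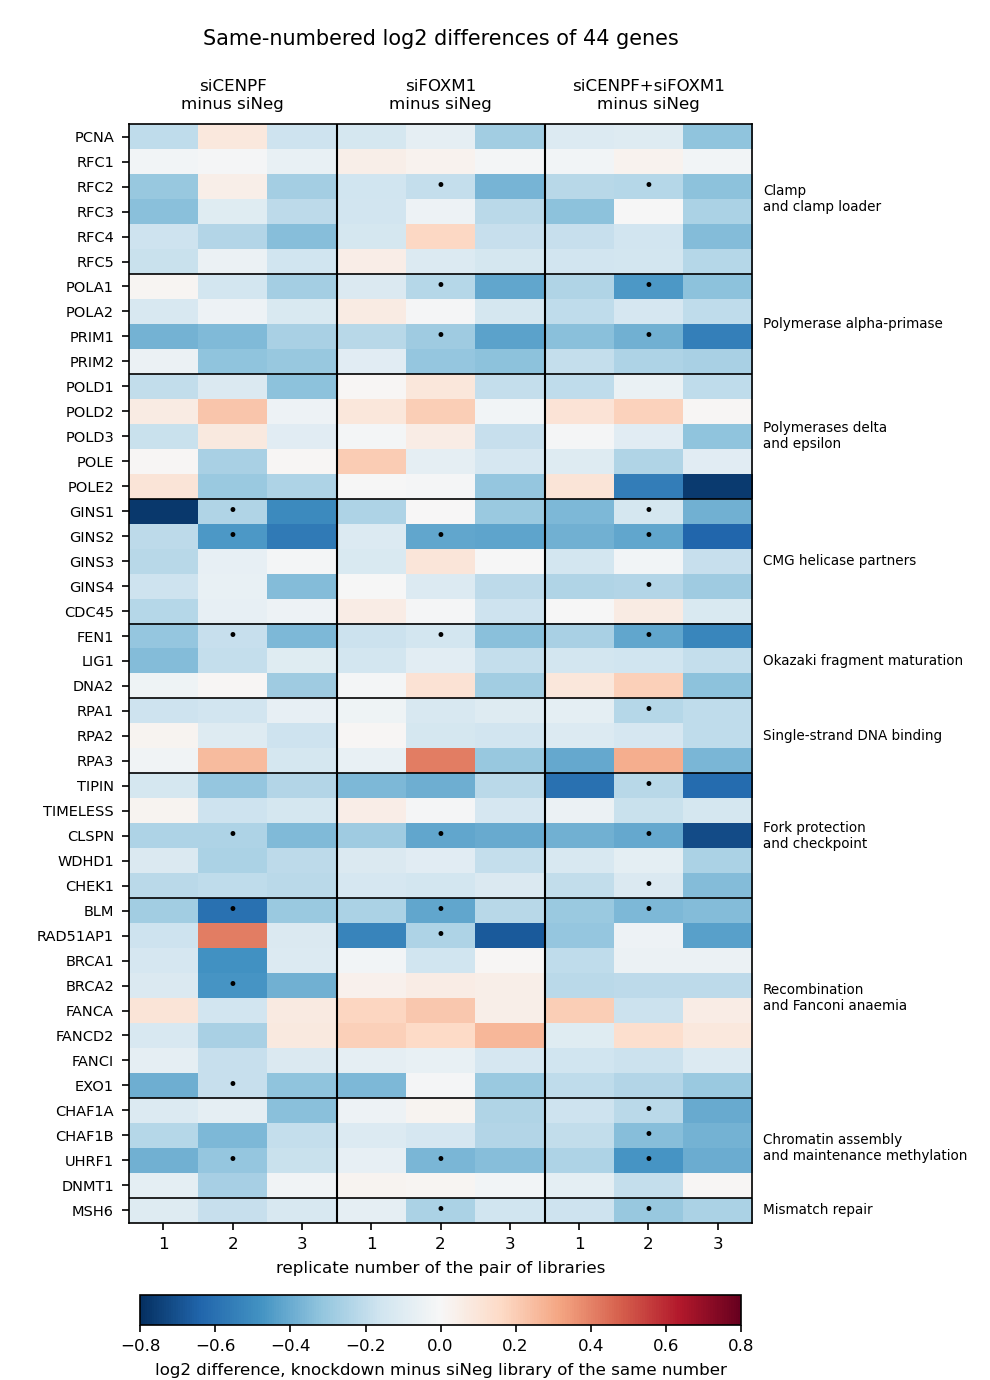
Log2 difference of each of the 44 genes between a knockdown library and the siNeg library of the same replicate number, for siCENPF, siFOXM1 and siCENPF+siFOXM1 and pairs 1 to 3; blue is lower in the knockdown. A dot in the middle cell marks a gene called with the replicate block in that comparison (8, 10 and 16 genes), and each marked gene is called lower.

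Among the CMG helicase partners, GINS1 and GINS2 gave the largest differences, and GINS3 and CDC45 the smallest. GINS1 (PSF1, ENSG00000101003, chr20:25407727-25452628 on hg38) stood at 422, 469.9 and 540.2 normalized counts with siCENPF, 607, 557 and 625 with siFOXM1 and 563, 504 and 589 with siCENPF+siFOXM1, against 721, 556 and 768 with siNeg. All 3 siCENPF libraries lay below all siNeg libraries, and siNeg library 2 was the one near the other knockdown groups. GINS1 fell with siCENPF to 70.1% of siNeg with the block (log2 fold change -0.51, SE 0.13 without and 0.09 with it, adjusted p = 0.212 without and 0.000525 with the block), and DESeq2 called it without the block (adjusted p = 0.0403). It was also called with siCENPF+siFOXM1 (-0.29, adjusted p = 0.656 without and 0.0387 with the block) and stood at -0.18 with siFOXM1 (0.847 and 0.236).

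GINS2 (PSF2, ENSG00000131153, chr16:85676198-85690073) stood at 620.1, 488 and 704 with siCENPF, 665, 503 and 777 with siFOXM1 and 549.5, 502 and 672 with siCENPF+siFOXM1, against 718, 670.4 and 1042 with siNeg. Each knockdown library was below the siNeg library of its number, while the groups overlapped because number 3 was high in all of them. With the block GINS2 fell in all 3 comparisons. The log2 fold changes were -0.41 with siCENPF (adjusted p = 0.944 without and 0.00212 with the block), -0.32 with siFOXM1 (0.814 and 0.0129) and -0.48 with siCENPF+siFOXM1 (0.634 and 0.000291). The other helicase partners were closer to siNeg. GINS4 (SLD5) fell with siCENPF+siFOXM1 with the block (-0.25, adjusted p = 0.791 without and 0.0332 with it), at 698 ± 103 against 833 ± 138 (SD, n = 3), and 21.2% of its exon bases lie opposite exons of another annotated gene. GINS3 (PSF3) stood at -0.10, -0.01 and -0.12 and CDC45 at -0.11, -0.04 and -0.02 with siCENPF, siFOXM1 and siCENPF+siFOXM1, none called.

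Of the Okazaki fragment enzymes, FEN1 (ENSG00000168496, chr11:61792637-61797244), the flap endonuclease, was called in all 3 comparisons with the block. It stood at 1918, 2089 and 2369 with siCENPF, 2109.7, 2147 and 2409 with siFOXM1 and 1986, 1778 and 2120.1 with siCENPF+siFOXM1, against 2377, 2373 and 3039.7 with siNeg. The siCENPF and the siCENPF+siFOXM1 libraries all lay below the siNeg libraries, and siFOXM1 library 3 exceeded siNeg libraries 1 and 2. The log2 fold changes were -0.28 with siCENPF (SE 0.11, adjusted p = 0.758 without and 0.00323 with the block), -0.22 with siFOXM1 (0.713 and 0.0178) and -0.40 with siCENPF+siFOXM1 (0.275 and 4.41e-05). LIG1, the ligase that seals the fragments, stood at -0.21, -0.14 and -0.16, and DNA2, a nuclease and helicase for long flaps, at -0.10, -0.06 and -0.01, none called. FEN1 shares 6.70% of its exon bases with TMEM258, which runs opposite, and whether the counting used strand is not stated.

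In the fork protection and checkpoint group, CLSPN (claspin, ENSG00000092853, chr1:35720218-35769967), the adaptor through which ATR activates CHEK1, had the largest fall with siCENPF+siFOXM1 among the 44 genes. It stood at 1043, 855 and 1205 with siCENPF, 1016, 759 and 1163 with siFOXM1 and 948, 765 and 937 with siCENPF+siFOXM1, against 1239, 1015 and 1539 with siNeg. In each group library 2 was the lowest, and all 3 siCENPF+siFOXM1 libraries lay below all 3 siNeg libraries. With the block CLSPN fell in each comparison, by log2 fold changes of -0.28 with siCENPF (adjusted p = 1.00 without and 0.0162 with the block), -0.37 with siFOXM1 (0.687 and 0.000817) and -0.50 with siCENPF+siFOXM1 (0.514 and 2.15e-05), the last to 69.9% of siNeg.

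TIPIN, a subunit of the fork protection complex with TIMELESS, stood at 234, 191 and 235 with siCENPF+siFOXM1, against 354, 223 and 361 with siNeg, and fell with the block (-0.48, adjusted p = 0.804 without and 0.00899 with it). Its library 2 was the lowest in every group, 21.02% of its exon bases are shared with a pseudogene on the same strand, and siNeg library 2 lay below the siCENPF+siFOXM1 libraries 1 and 3. TIMELESS itself stood at -0.09, -0.03 and -0.12 with siCENPF, siFOXM1 and siCENPF+siFOXM1, none called. CHEK1, the checkpoint kinase, was at 1012, 1053 and 1008 with siCENPF+siFOXM1, against 1159, 1140.0 and 1279.7 with siNeg, with no overlap, and fell with the block (-0.22, adjusted p = 0.543 without and 0.0352 with it). With siCENPF its libraries also did not overlap with siNeg and it stood at -0.21 (adjusted p = 0.743 without and 0.0596 with the block). WDHD1, which links the helicase to polymerase alpha, stood at -0.19, -0.13 and -0.15, none called.

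Both subunits of polymerase alpha-primase that begin synthesis, POLA1 (the catalytic polymerase subunit) and PRIM1 (the catalytic primase subunit), were called with siFOXM1 and with siCENPF+siFOXM1 with the block. PRIM1 stood at 253, 309 and 366 with siCENPF, 282, 324 and 325 with siFOXM1 and 261, 303 and 299 with siCENPF+siFOXM1, against 328, 396 and 438 with siNeg. The siFOXM1 and siCENPF+siFOXM1 libraries lay below all siNeg libraries. Its log2 fold changes were -0.33 with siCENPF (adjusted p = 0.865 without and 0.0524 with the block by limma, and 0.049 by edgeR with the block), -0.31 with siFOXM1 (0.656 and 0.0465) and -0.42 with siCENPF+siFOXM1 (0.452 and 0.00644). POLA1 stood at 714, 700.3 and 769 with siFOXM1 and 657, 598 and 814 with siCENPF+siFOXM1, against 774, 822 and 1024 with siNeg. Only the siFOXM1 libraries lay entirely below siNeg for POLA1 (-0.25, adjusted p = 0.683 without and 0.0363 with the block), and with siCENPF+siFOXM1 it stood at -0.34 (0.506 and 0.00451). limma called neither accessory subunit: PRIM2 stood at -0.22, -0.24 and -0.23 with siCENPF, siFOXM1 and siCENPF+siFOXM1, and POLA2 at -0.09, -0.03 and -0.18. edgeR with the block called PRIM2 with siFOXM1 (adjusted p = 0.0449, against 0.0511 by limma). On the same strand, AC117378.1 shares 14.9% of PRIM1 exon bases and AP000944.2 shares 35.1% of POLA2 exon bases. NACA, at a mean of 9332 reads in siNeg, also shares 1.35% of PRIM1 exon bases on the same strand. How the authors assigned such reads is not stated.

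**Figure D3:**
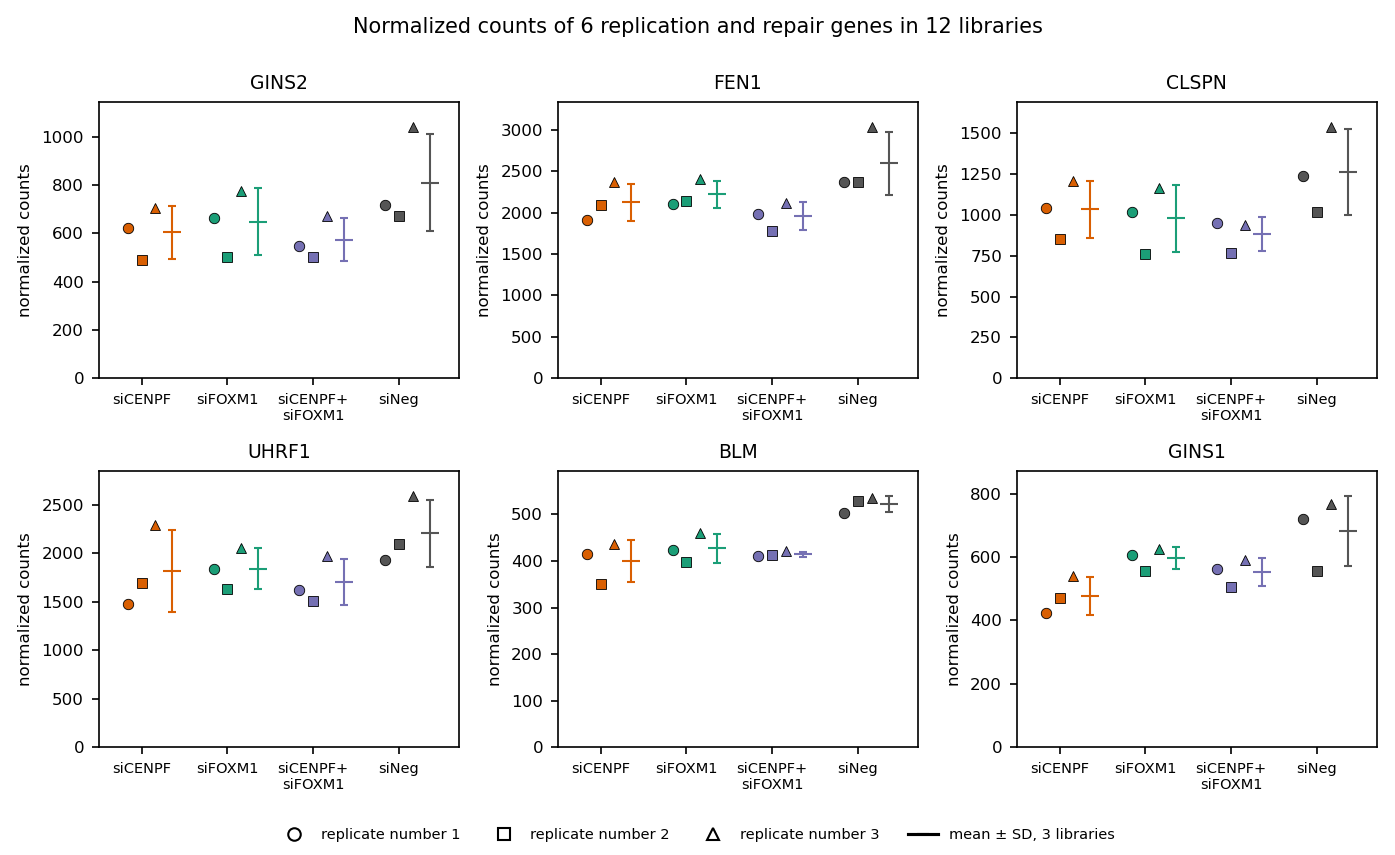
Normalized counts of 6 genes in each library (points; shape gives the replicate number) with mean ± SD of 3 libraries beside them, for siCENPF, siFOXM1, siCENPF+siFOXM1 and siNeg. For GINS2, FEN1, CLSPN and UHRF1 siNeg library 3 is the highest of the 12 libraries, and for BLM all 9 knockdown libraries lie below the 3 siNeg libraries.

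Polymerases delta and epsilon had no call by limma in any of the 3 comparisons, and edgeR with the block called POLD1 with siCENPF. POLD2 was the member with the highest log2 fold change in this group (0.08, 0.09 and 0.10 with siCENPF, siFOXM1 and siCENPF+siFOXM1, at 2879 ± 75.7 in the last group against 2687 ± 175 with siNeg). POLD1, the catalytic subunit of polymerase delta, stood at 1029.8, 1154 and 1131 with siCENPF, against 1183, 1249 and 1419.6 with siNeg, without overlap (-0.21, limma adjusted p = 0.877 without and 0.055 with the block, edgeR adjusted p with the block 0.0388). POLD1 stood at -0.03 with siFOXM1 and at -0.15 with siCENPF+siFOXM1. POLD3 and POLE, the catalytic subunit of polymerase epsilon, lay between -0.14 and 0.00. POLE2 had the fewest counts of the 44 genes, at 104, 81.8 and 87.7 with siCENPF+siFOXM1 against 96.3, 120.4 and 149.5 with siNeg (-0.40, adjusted p = 0.69 without and 0.151 with the block). Pair 1 of POLE2 went the other way (0.10).

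The clamp and its loader differed little. PCNA stood at 3451, 3774 and 3653 with siCENPF+siFOXM1, against 3728, 4061 and 4569.9 with siNeg, and its log2 fold changes of -0.10 with siCENPF, -0.16 with siFOXM1 and -0.18 with siCENPF+siFOXM1 were not called by limma (adjusted p with the block 0.426, 0.0811 and 0.0533); edgeR with the block called PCNA with siCENPF+siFOXM1 (0.0479). Of the 5 RFC subunits, RFC2 fell with the block with siFOXM1 (-0.24, adjusted p = 0.772 without and 0.0463 with it) and with siCENPF+siFOXM1 (-0.26, 0.79 and 0.034). It stood at 824 ± 110.2 with siCENPF+siFOXM1 and 989 ± 173 with siNeg (SD, n = 3). RFC4 did not overlap with siNeg in siCENPF cells, at 616, 550.5 and 648 against 690.5, 649 and 822, and was not called (-0.25, adjusted p = 0.847 without and 0.0802 with the block). RFC3 stood at -0.21, -0.14 and -0.19, RFC5 at -0.13, -0.07 and -0.18, and RFC1, the largest subunit, at -0.03, 0.02 and 0.00, with siCENPF, siFOXM1 and siCENPF+siFOXM1.

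RPA, the single-strand binding trimer, had 1 call. RPA1 stood at 3154, 3053 and 3131 with siCENPF+siFOXM1, against 3326, 3583 and 3605 with siNeg, with no overlap, and fell with the block (-0.17, adjusted p = 0.642 without and 0.0409 with it). RPA2 stood at -0.08, -0.09 and -0.15 with siCENPF, siFOXM1 and siCENPF+siFOXM1. RPA3 stood at 0.03 with siCENPF, 0.02 with siFOXM1 and -0.16 with siCENPF+siFOXM1, and its library 2 was the highest of each knockdown group (435, 485 and 445, against 364 in siNeg library 2).

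The recombination and Fanconi anaemia genes differed among themselves. BLM (ENSG00000197299, chr15:90717327-90816165), the helicase that with TOP3A dissolves double Holliday junctions, stood at 415, 350.2 and 436 with siCENPF, 423, 397 and 459.9 with siFOXM1 and 410.3, 412 and 421 with siCENPF+siFOXM1, against 504, 529.6 and 535 with siNeg. All 9 knockdown libraries lay below all 3 siNeg libraries, and siNeg library 3 was close to the other siNeg libraries for this gene. BLM fell in all 3 comparisons with the block: the log2 fold change was -0.39 with siCENPF (SE 0.10, adjusted p = 0.226 without and 0.0074 with the block), -0.29 with siFOXM1 (0.4 and 0.0355) and -0.33 with siCENPF+siFOXM1 (0.334 and 0.0165).

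RAD51AP1 (ENSG00000111247, chr12:4538798-4560048), which promotes strand exchange in homologous recombination, differed between the knockdowns. It stood at 582, 816 and 702 with siCENPF, 452, 516 and 478 with siFOXM1 and 526, 596 and 562 with siCENPF+siFOXM1, against 652, 614 and 761 with siNeg. The siFOXM1 and the siCENPF+siFOXM1 libraries lay below all siNeg libraries, whereas the siCENPF libraries lay on both sides. RAD51AP1 fell with siFOXM1 to 71.4% of siNeg with the block (-0.48, SE 0.13, adjusted p = 0.138 without and 0.000871 with it), DESeq2 called it without the block (adjusted p = 0.0299), and the call held in each of the 12 fits with the block that left out 1 library. It stood at 0.04 with siCENPF (adjusted p = 0.875 with the block) and at -0.26 with siCENPF+siFOXM1 (0.0814).

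BRCA2 (ENSG00000139618, chr13:32315474-32400266), a mediator of homologous recombination, stood at 628, 401 and 568 with siCENPF, against 681, 556 and 741 with siNeg, and fell with the block (-0.32, adjusted p = 0.997 without and 0.0187 with it). It stood at 0.05 with siFOXM1 and -0.21 with siCENPF+siFOXM1, not called. EXO1, an end-resecting and mismatch repair nuclease, fell with siCENPF with the block (-0.30, 593 ± 113 against 735 ± 171, adjusted p = 1.00 without and 0.0293 with it). EXO1 stood at -0.22 with siFOXM1 and -0.24 with siCENPF+siFOXM1, not called.

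FANCD2 (ENSG00000144554, chr3:10026414-10101930), which is ubiquitinated at blocked forks, stood at 1136, 1078 and 1157 with siFOXM1, against 996, 963 and 962 with siNeg. It was the only one of the 44 genes with all siFOXM1 libraries above all siNeg libraries, a pattern that 6.56% of all genes showed. Its log2 fold change of 0.21 was not called (adjusted p = 0.615 without and 0.0856 with the block). FANCA, of the Fanconi core complex, stood at 0.01, 0.14 and 0.03 with siCENPF, siFOXM1 and siCENPF+siFOXM1, and 23.6% of its exon bases lie opposite ZNF276. FANCI, the partner of FANCD2, stood at -0.12, -0.09 and -0.15, and BRCA1 at -0.24, -0.06 and -0.10, none called.

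Behind the fork, UHRF1 (ENSG00000276043, chr19:4903080-4962154), which reads hemimethylated DNA for DNMT1, was called in each comparison with the block. It stood at 1474, 1692 and 2288 with siCENPF, 1836, 1627 and 2048 with siFOXM1 and 1621, 1510.0 and 1968 with siCENPF+siFOXM1, against 1926, 2096 and 2590.2 with siNeg. The groups overlapped, and every knockdown library lay below the siNeg library of its number. The log2 fold changes were -0.29 with siCENPF (adjusted p = 1.00 without and 0.0109 with the block), -0.26 with siFOXM1 (0.811 and 0.017) and -0.37 with siCENPF+siFOXM1 (0.655 and 0.000713). DNMT1, the maintenance methyltransferase, stood at 4942 ± 829, 5370.0 ± 403 and 5067 ± 809 with siCENPF, siFOXM1 and siCENPF+siFOXM1, against 5350.4 ± 493 with siNeg (SD, n = 3), and was not called.

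CHAF1A and CHAF1B, the large subunits of the histone chaperone CAF-1, fell with siCENPF+siFOXM1 with the block (-0.26, adjusted p = 0.82 without and 0.00758 with it, and -0.31, 0.812 and 0.016). CHAF1A stood at 1316 ± 193 with siCENPF+siFOXM1 and 1593 ± 367 with siNeg, and CHAF1B at 511 ± 79.3 with siCENPF+siFOXM1 and 634 ± 117 with siNeg (SD, n = 3). With 1 siRNA alone they stood between -0.26 and -0.08, not called. MSH6, a mismatch recognition protein, stood at 3179, 2934 and 3572 with siFOXM1 and 2976, 2840.2 and 3349.9 with siCENPF+siFOXM1, against 3344, 3501 and 3996 with siNeg. Each of these libraries was below the siNeg library of its number. MSH6 fell with the block with siFOXM1 (-0.16, adjusted p = 0.814 without and 0.0392 with it) and with siCENPF+siFOXM1 (-0.24, 0.648 and 0.00221), and 16.2% of its exon bases lie opposite FBXO11.

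Some block calls held in each of the 12 fits that left out 1 library and others did not. Those that held were GINS1, GINS2 and FEN1 with siCENPF, CLSPN and RAD51AP1 with siFOXM1, and GINS2, FEN1, CLSPN, UHRF1 and MSH6 with siCENPF+siFOXM1. The call of PRIM1 with siFOXM1 held in 2 of the 12, those of RFC2 and MSH6 with siFOXM1 and of RPA1 with siCENPF+siFOXM1 in 4, and that of GINS1 with siCENPF+siFOXM1 in 5. The remaining calls held in 6 to 11.

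The direct comparison of siFOXM1 with siCENPF asks where the single knockdowns differ. With the block 1 gene was lower and 3 were higher in siFOXM1 cells, where 4.23% of all genes were called lower and 3.35% higher. The lower call is 2.27% of the 44, under the share of all genes. With 1 and 3 calls, the counts do not set the 44 genes apart from all genes. Without the block limma called 0 (0.458% of all genes), edgeR called 0 (0.474%) and DESeq2 called 1 (1.09%). The unadjusted limma p without the block was under 0.05 for 3 of the 44 genes and for 1020 of all 14857. RAD51AP1 was lower with siFOXM1, at 452, 516 and 478 against 582, 816 and 702 with siCENPF, with no overlap (-0.53, SE 0.13, adjusted p = 0.131 without and 0.000457 with the block, DESeq2 adjusted p = 0.0156). FANCD2 was higher, at 1136, 1078 and 1157 with siFOXM1 against 912, 805 and 1017 with siCENPF, also with no overlap (0.31, adjusted p = 0.323 without and 0.00912 with the block). GINS1 was higher as well, at 607, 557 and 625 against 422, 469.9 and 540.2 with siCENPF (0.33, adjusted p = 0.614 without and 0.0217 with the block).

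The fourth gene was BRCA2, at 698, 580.1 and 767 with siFOXM1 against 628, 401 and 568 with siCENPF. These groups overlapped in 1 library, siCENPF library 1, and BRCA2 was higher in each pair (0.37, adjusted p = 0.733 without and 0.00456 with the block). The count of 4 was 2 without siFOXM1 library 1 or 2, and the RAD51AP1 call held in all 12 fits that left out 1 library. The median log2 fold change of the 44 genes between siFOXM1 and siCENPF was 0.06, with 34 genes above 0.

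**Figure D4:**
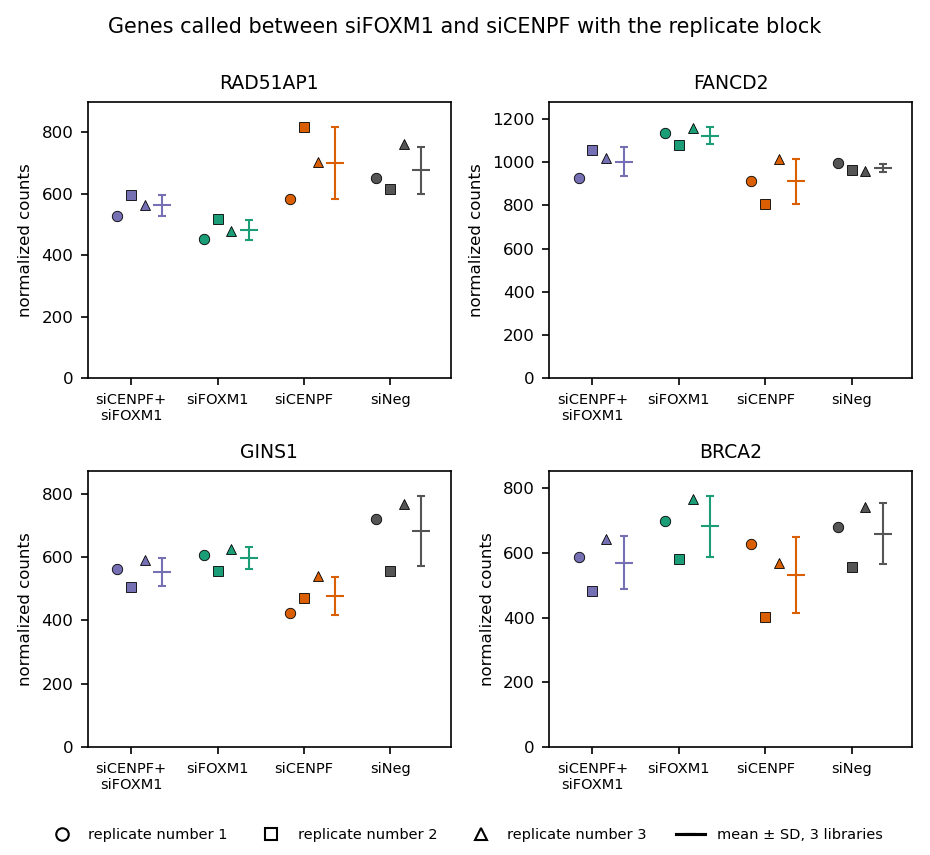
Normalized counts of the 4 genes called between siFOXM1 and siCENPF with the replicate block, in each library (points; shape gives the replicate number) with mean ± SD of 3 libraries. The 3 siFOXM1 libraries of RAD51AP1 (452 to 516) lie below the siCENPF libraries (582 to 816), and those of FANCD2 and GINS1 lie above them.

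Adding the second siRNA to the first changed none of the 44 genes past the threshold. Of siCENPF+siFOXM1 against siCENPF, limma called 0 without the block (0.0808% of all genes) and 0 with it (1.46%), and edgeR (0.0756%) and DESeq2 (0.227%) called 0. The unadjusted p was under 0.05 for 1 gene without and 6 with the block, and for 439 and 1759 of all 14857 genes. RAD51AP1 stood lowest in this comparison, at 526, 596 and 562 with siCENPF+siFOXM1 against 582, 816 and 702 with siCENPF (-0.31, adjusted p = 1.00 without and 0.111 with the block), and CLSPN stood at -0.22 (0.142 with the block). Without siNeg library 2 the block fit called 1 gene. Of siCENPF+siFOXM1 against siFOXM1, limma again called 0 without the block (0.00673% of all genes) and 0 with it (0.296%), edgeR 0 (0.00687%) and DESeq2 0 (0.0275%). Here the unadjusted p was under 0.05 for 0 genes without and 8 with the block, and for 293 and 1138 of all 14857 genes. FEN1 stood at -0.18 (adjusted p = 0.337 with the block), BRCA2 at -0.26 (0.319) and RAD51AP1 at 0.22 (0.58).

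The interaction, which sets the effect of both siRNAs against the added effects of each alone, had 0 calls by limma without (0% of all genes) and with the block (0.841%). edgeR also called 0 (0%), as did DESeq2 (0.168%). The unadjusted p was under 0.05 for 1 gene without and 5 with the block, and for 353 and 1266 of all 14857 genes. The median over the 44 genes was 0.07 on the log2 scale, with 34 above 0. GINS1 had the highest value (0.39, SE 0.18, adjusted p = 1.00 without and 0.217 with the block), followed by BLM (0.35, 1.00 and 0.335): both were lowest with siCENPF alone and not lower with both siRNAs. CENPF itself stood at 10.8% of siNeg with siCENPF and at 15.8% with siCENPF+siFOXM1. FOXM1 stood at 15.2% with siFOXM1 and at 17.7% with siCENPF+siFOXM1. The part of these differences in depletion in the interaction was not tested. Without siNeg library 2 the block fit called 1 gene.

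The 44 genes also differed between replicate numbers. As the median log2 deviation from each gene's mean over the 12 libraries, siCENPF libraries 1 to 3 had -0.10, -0.13 and 0.11, the siFOXM1 libraries -0.03, -0.05 and 0.11 and the siCENPF+siFOXM1 libraries -0.11, -0.16 and 0.04, against 0.03, -0.01 and 0.28 in siNeg. Number 3 was the highest in each group, and siNeg library 3 was the highest of all. Reads in genes, the depth, were also highest in number 3 of each group, and the share of mitochondrial reads was lowest in siNeg library 3, at 1.73%. The part of depth or RNA quality in the result was not tested. Without siNeg library 3 the median log2 fold changes were -0.07 with siCENPF, -0.02 with siFOXM1 and -0.11 with siCENPF+siFOXM1. These fits had no block, and the knockdown groups kept their high number 3 libraries. With a whole replicate number left out, the medians were -0.17 to -0.15 with siCENPF and -0.14 to -0.07 with siFOXM1. With siCENPF+siFOXM1 they were then -0.21 to -0.17.

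Within each pair of same-numbered libraries the median of the 44 genes was below 0. It was -0.16, -0.18 and -0.18 in pairs 1 to 3 with siCENPF, -0.07, -0.07 and -0.19 with siFOXM1, and -0.19, -0.17 and -0.27 with siCENPF+siFOXM1. The genes below siNeg numbered 37, 37 and 41 of 44 in the siCENPF pairs, 31, 30 and 40 in the siFOXM1 pairs and 40, 38 and 40 in the siCENPF+siFOXM1 pairs. For the 13 mitochondrially encoded genes the median difference (log2) was 0.11, 0.13 and 0.07 with siCENPF, siFOXM1 and siCENPF+siFOXM1, and with the block 2, 3 and 0 of them rose, where 2.86%, 4.48% and 4.18% of all genes were called higher. Without the block limma called 0 of these 13 in each comparison (0, 0 and 0 had an unadjusted p under 0.05).

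Other lists of the S-phase programme stood on the same side of siNeg. The 11 origin licensing genes (MCM2 to MCM7, ORC1, ORC6, CDC6, CDT1 and GMNN) had medians of -0.22, -0.23 and -0.35 with siCENPF, siFOXM1 and siCENPF+siFOXM1, and with the block 6, 7 and 9 of them fell. The 10 nucleotide supply genes had medians of -0.14, -0.14 and -0.17, with 2, 2 and 3 lower. Of 8 genes of E2F factors and their partners, with medians of -0.10, -0.13 and -0.17, 2, 1 and 3 fell with the block, E2F1 in each comparison. The 24 genes of G2 and M phase had medians of -0.09, 0.06 and -0.01: 3 fell and 0 rose with siCENPF, 5 fell and 2 rose with siFOXM1, and 5 fell and 1 rose with siCENPF+siFOXM1, all with the block. Without the block limma called 0 genes of the licensing, nucleotide supply and E2F lists in each comparison, and 0, 3 and 2 genes of the G2 and M phase list, all lower. The unadjusted p without the block was under 0.05 for 0, 1 and 5 licensing genes, 0, 1 and 1 nucleotide supply genes and 0, 0 and 2 genes of the E2F list. It was under 0.05 for 821, 1155 and 1093 of all 14857 genes. Of all genes tested, 1.66%, 4.23% and 3.72% were called lower and 2.86%, 4.48% and 4.18% higher in these comparisons.

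**Figure D5:**
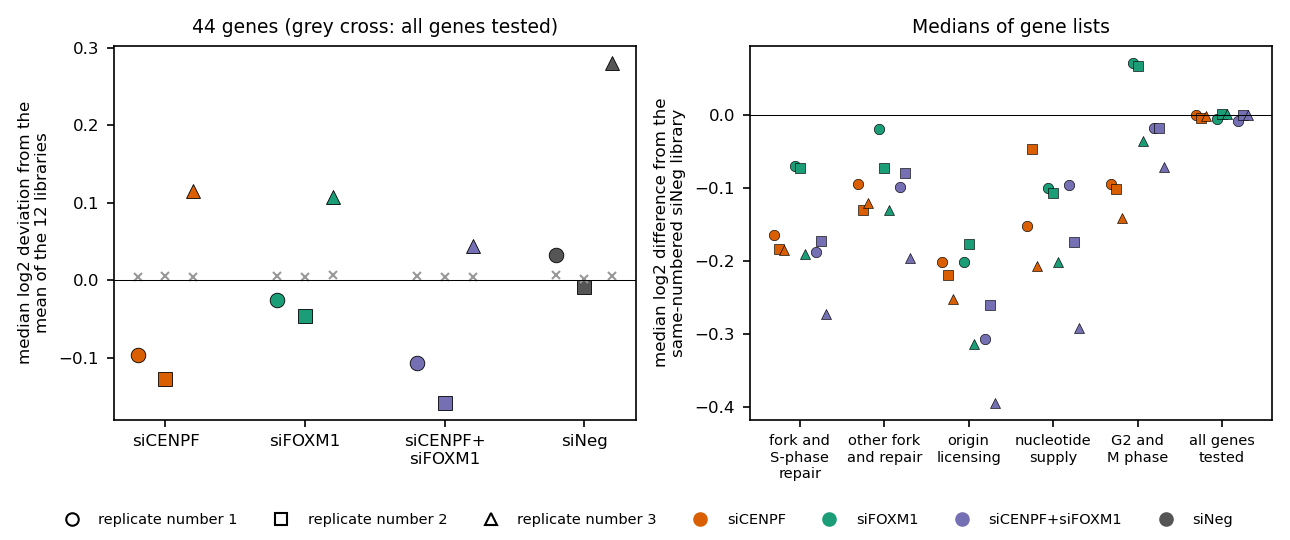
Left, median log2 deviation of the 44 genes in each library from the mean of the 12 libraries, by group and replicate number, with grey crosses for all genes tested; siNeg library 3 is the highest at 0.28. Right, median log2 difference of each gene list from the siNeg library of the same number, for siCENPF, siFOXM1 and siCENPF+siFOXM1; origin licensing lies lowest (medians to -0.39) and all genes tested lie at about 0.

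Among 66 further genes of the fork and of S-phase repair, limma with the block called 2 lower and 0 higher with siCENPF, 7 lower and 1 higher with siFOXM1, and 9 lower and 1 higher with siCENPF+siFOXM1, with medians of -0.13, -0.07 and -0.12. The lower calls were 3.03%, 10.6% and 13.6% of the 66, where 1.66%, 4.23% and 3.72% of all genes were called lower. Without the block limma called 0 of the 66 in each comparison. Its unadjusted p was under 0.05 for 1, 2 and 5 of the 66, and for 821, 1155 and 1093 of all 14857 genes. RNASEH2A, the catalytic subunit of RNase H2, fell with siCENPF (-0.26, adjusted p = 0.535 without and 0.0112 with the block) and with siCENPF+siFOXM1 (-0.31, 0.24 and 0.00143). USP1, the FANCD2 deubiquitinase, fell with siFOXM1 (-0.26, 0.511 and 0.00397) and with siCENPF+siFOXM1 (-0.29, 0.452 and 0.00184). HELLS, a chromatin remodeller, fell with siFOXM1 (-0.39, 0.644 and 0.000465), as did TOP3A, the topoisomerase partner of BLM (-0.38, 0.644 and 0.00452), and NBN, of the MRE11 complex (-0.20, 0.573 and 0.0396). HELLS and TOP3A were also called lower with siCENPF+siFOXM1 with the block. MRE11 (-0.20), DSCC1 (-0.33) and ESCO2 (-0.26) with siCENPF and RAD54L (-0.27) with siCENPF+siFOXM1 were not called with or without the block.

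The authors' deposited tables, from edgeR likelihood ratio tests without a stated block, call 0 of the 44 genes at an adjusted p under 0.05. They call 27 of 14306 genes (0.189%) with siCENPF, 107 of 14393 (0.743%) with siFOXM1 and 80 of 14336 (0.558%) with siCENPF+siFOXM1. The lowest adjusted p among the 44 in the authors' deposited tables is 0.979 with siCENPF (GINS1, log2 fold change -0.52), 0.18 with siFOXM1 (RAD51AP1, -0.49) and 0.296 with siCENPF+siFOXM1 (CLSPN, -0.52). Unadjusted, 3, 1 and 8 of the 44 have a p under 0.05 in the authors' deposited tables. The share of all their genes under this p was not computed.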

How the data were processed

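RNA-seq of 12 hTERT-RPE1 libraries was analysed from deposited tables. Per the submitters' processing notes, bcl2fastq, Trimmomatic, TopHat and edgeR were used with hg38; no version is listed, and the strand setting and normalization method are not given in the sources used here. Normalized values were taken as deposited: the authors deposited normalized counts per gene (a signal, not whole numbers), CPM, FPKM, and edgeR comparison tables with log2 fold changes, log2 CPM, likelihood ratio scores and p-values.

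Tests used limma 3.58.1 in R 4.3.3 (trend, robust, two-sided) on log2(normalized count + 1) for 14857 genes reaching 10 normalized counts in 3 or more of the 12 libraries, in one model of the 4 groups, with Benjamini-Hochberg adjustment over all genes and a threshold of 0.05. Fold changes on this scale understate the change of low genes. Genes reported as called are those past this threshold. The same model was fitted with the replicate number as a block. Replicate numbers come from the labels: the 18 pairs of same-numbered libraries in different groups had correlations of their deviations from group means of 0.272 to 0.639 (median 0.536), and the 36 other pairs -0.51 to 0.0248. Deviations sum to 0 within a group, so positive same-numbered correlations push the other pairs below 0. The second range is therefore no separate evidence of pairing. Whole reads were recovered from the CPM (all values whole within 0.01 reads; 0 of 172773 values differed from those recovered from FPKM; 14556 genes) and tested with edgeR 4.0.16 (quasi-likelihood, TMM) and DESeq2 1.42.0. Levels between genes used recovered reads and GENCODE merged exon lengths.

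Named genes were the targets, the 8 genes with the smallest adjusted p without the block against siNeg (4 in the other comparisons), the highest and lowest per role by level in siNeg, and up to 4 pathway genes per comparison against siNeg, of which 1 is not reported here. The rule for the members goes by function and uses no measured value, but members and lists were chosen with earlier results of these data known. Alternatives were another pseudocount, no filter, the block, edgeR, DESeq2, FPKM, quantile normalization, only the groups compared, and leaving out each library or each replicate number.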

Additional observations from a re-analysis of the deposited data

How the results depend on the processing

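With the replicate block, which uses the pairing by number, limma called 8, 10 and 16 of the 44 genes with siCENPF, siFOXM1 and siCENPF+siFOXM1 against siNeg and 4 in siFOXM1 against siCENPF, where without it 0 were called; edgeR with the block called 10, 11, 17 and 4, and DESeq2 without it called 1 with siCENPF, 1 with siFOXM1 and 1 in siFOXM1 against siCENPF. A pseudocount of 5, no filter, FPKM, quantile normalization, edgeR without the block, and fits of only the groups compared called 0 in each comparison they covered; the interaction has no fit of only the groups compared. The median log2 fold change with siCENPF was -0.17 under edgeR with and without the block, DESeq2 and quantile normalization. The cause of these differences was not tested. Leaving out 1 library or 1 replicate number, the counts without the block stayed at 0 to 0. The median ranged from -0.24 to -0.0698 with siCENPF, -0.16 to -0.0239 with siFOXM1, -0.26 to -0.11 with siCENPF+siFOXM1, -0.0881 to 0.0449 in siCENPF+siFOXM1 against siCENPF, -0.15 to -0.0330 against siFOXM1, 0.0102 to 0.15 in siFOXM1 against siCENPF and -0.0154 to 0.14 for the interaction. With the block and 1 library left out, the counts ranged from 5 to 9, 2 to 13 and 6 to 20 against siNeg (3 with siFOXM1 without its library 2), 0 to 1 and 0 to 0 for siCENPF+siFOXM1 against siCENPF and siFOXM1, 2 to 4 for siFOXM1 against siCENPF and 0 to 1 for the interaction. With the block and replicate number 1, 2 or 3 left out they were 3, 8 and 2 with siCENPF, 4, 6 and 1 with siFOXM1 and 8, 16 and 5 with siCENPF+siFOXM1. Of the 40 values of named genes, none reversed under 1596 alternatives: 1280 kept their side of the threshold and 316 passed it. None of the 40 was called without the block, so none could lose a call. These numbers therefore do not measure how well the block calls held.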
